A study of Homo sapiens with 4 samples.

Results

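The genes for 10 readers of N6-methyladenosine (m6A) were followed across m6A-seq libraries of irradiated human cells. They were chosen by gene symbol and are YTHDF1, YTHDF2, YTHDF3, YTHDC1, YTHDC2, IGF2BP1, IGF2BP2, IGF2BP3, FMR1 and ELAVL1. All 10 were found among the 14911 gene names of the count tables, and 5 of them (YTHDF1, YTHDC2, IGF2BP1, IGF2BP3 and ELAVL1) averaged 50 or more counts per library, as did 5320 genes in all. The cells were HEK293T, a line from human embryonic kidney that carries the SV40 large T antigen, and all had received X-rays (10 Gy by the study's methods). They carried a lentiviral shRNA and had been selected with puromycin. The shRNA was a control (shCTL) or was directed at the demethylase ALKBH5 (shA5). From each population poly(A) RNA was fragmented and sequenced before (input) and after (m6A-IP) capture with an antibody against m6A, giving 1 library per group. No difference between shCTL and shA5 therefore has a replicate check, and no p-value was computed. Which of the study's ALKBH5 shRNAs was used, and how long after exposure these cells were harvested, is not given in the sources used here. Where values are given for all 4 libraries, the input and then the IP of shCTL come first, followed by the input and the IP of shA5. Library totals in this order were 2237819, 3944402, 1311390 and 3148119 counts, so the shA5 input is the shallowest.

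m6A is placed on mRNA by a methyltransferase complex (the writers), removed by demethylases (the erasers, ALKBH5 among them) and bound by readers that decide what becomes of the transcript. Proteins with a YTH domain hold the methylated adenosine in an aromatic cage. The YTHDF proteins do so in the cytoplasm, where they bring mRNA to the deadenylase machinery, YTHDC1 does so in the nucleus in splicing and export, and YTHDC2 is an RNA helicase known for its role in meiosis. The IGF2BP proteins are KH-domain proteins that stabilise their target mRNAs. FMR1, the gene silenced in fragile X syndrome, and ELAVL1, which encodes the AU-rich element binding protein HuR, have been proposed as further readers. Since readers are themselves made from mRNA, their transcripts can carry the mark that their proteins bind.

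The targeted gene was measured first. ALKBH5 had 486, 1432, 145 and 589 counts. As CPM, a unit in which every library has the same total, this was 217, 363, 111 and 187. From shCTL to shA5 its input RNA changed by -0.97 on the log2 scale (95% interval -1.25 to -0.70), so the libraries carried less ALKBH5 RNA where the labels place the knockdown. Here and below a log2 ratio was formed from CPM with 0.5 CPM added on each side, and its interval is the exact conditional interval of the counts, which covers counting error only. Such ratios are relative to the library totals, so a change shared by all transcripts would not show. Of 6 genes reported to be high in HEK293 cells, all 6 had counts, and they summed to 40.2, 29.2, 29.0 and 19.1 CPM. LIN28B was the most abundant, with 74 of their 90 counts in the input of shCTL and 28 of 38 in that of shA5, so the lower input sum is that of LIN28B. The others were near 0 in the inputs. They were VIM (4, 8, 2 and 8 counts), PAX2 (0, 1, 0 and 0), INA (3, 24, 2 and 6), NEFM (3, 8, 2 and 4) and TUBB3 (6, 6, 4 and 8). Of 9 markers of the colorectal line HCT116, 4 had any count. They summed to 2.68, 1.52, 3.05 and 0.635 CPM. The most abundant in the inputs were EPCAM and CEACAM5 (each with 3 counts in shCTL and 2 in shA5, and 0 in the IPs). In the IPs it was GPA33 in shCTL (5 counts), and CDH1, CDH17, VIL1, CEACAM6 and TFF3 were at 0. Of 5 markers of other cells, 2 had counts, with sums of 179, 147, 114 and 78.8 CPM that came almost wholly from the collagen gene COL1A1, while PTPRC, ALB and COL1A2 were at 0.

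The methyltransferase complex acts on adenosines in the sequence RRACH (R stands for a purine and H for any base but G), of which GGACT is the best known form. In the most counted coding transcripts of the reader genes, the density of RRACH lay between 10.4 per kb in FMR1 and 18.0 per kb in IGF2BP2, around the median of 13.3 per kb over genes past the count filter. YTHDF1 had 49 RRACH sites in 3198 bases and YTHDC2 had 98 in 6305 bases, while IGF2BP1 had 113 in 8796 bases. GGACT occurred once or more in 93.3% of the transcripts of 5302 genes, and 39.5% had it within 200 bases of the stop codon. It occurred at 1 position in YTHDF1, 4 in YTHDC2, 9 in IGF2BP1, 2 in IGF2BP3 and 4 in ELAVL1. For these 5 genes the GGACT nearest to the stop codon is shown with 10 bases on either side, read 5′ to 3′ on the strand of the gene in hg38, with the motif in capitals, to show what kind of site each transcript offers.
YTHDF1: agtcccccgtGGACTacggcaccag
YTHDC2: gggctctgctGGACTaggaggagta
IGF2BP1: gttccatggaGGACTtgagtggccc
IGF2BP3: acgcgttcgtGGACTgcccggacga
ELAVL1: aaactcctcaGGACTgggatctggc
The YTHDF1 site lies in the coding sequence, 308 bases before the stop codon (chromosome 20 from 63202558 to 63202582, minus strand). That of YTHDC2 is also coding, 199 bases before the stop codon (chromosome 5 from 113592046 to 113592070, plus strand), and that of IGF2BP3 lies 1610 bases before it (chromosome 7 from 23469971 to 23469995, minus strand). The sites of IGF2BP1 (chromosome 17 from 49050417 to 49050441, plus strand) and ELAVL1 (chromosome 19 from 7962013 to 7962037, minus strand) are in the 3′ UTR, 987 and 1460 bases after the stop codon. Whether these sites were methylated was not measured, because the counts are per transcript. Across 5302 genes the Spearman correlation of m6A enrichment in shCTL with RRACH per kb was -0.04, with GGACT per kb 0.17 and with GC content 0.36. In shA5 the values were -0.06, 0.17 and 0.38. The genes share the same libraries and are not independent replicates. By region the correlation with RRACH per kb had opposite signs, at -0.15 and -0.17 for coding sequence and 0.09 and 0.08 for the 3′ UTR, which the value for whole transcripts does not show.

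The number of counts differed widely between the reader genes, and so did the part of each gene that belongs to a single transcript. Bases were counted that lie in only 1 annotated coding transcript of a gene (single-transcript bases, Gencode v44). They made up 76.9% of the exonic bases of YTHDF1 and 85.0% of those of IGF2BP1, but 0% in YTHDF2 and 1.35% in YTHDF3. YTHDF2 had 12, 22, 11 and 17 counts. YTHDC1 did not follow this pattern, since 51.3% of its bases were of this kind, as in the well counted IGF2BP3 (50.3%). Its transcript ENST00000344157 has 2935 of them and had 4, 1, 4 and 0 counts. Over all genes with under 10% of such bases the median of the mean count was 9.0 and 19.7% passed the count filter, against a median of 62.8 and 53.4% of genes with at least 75%. Single genes varied widely around these medians. Of genes named after their counts had been seen, GAPDH (22.3% such bases) had 78, 59, 42 and 34 counts and EEF1A1 (55.9%) had 299, 121, 189 and 130. ACTB (35.7%) had 1299, 1972, 872 and 1553 counts, and CALR (0%) averaged 14359. The rule for reads shared between transcripts, and the annotation behind the counts, are not given in the sources used here, and their part in the low counts was not tested. Without that rule it cannot be told whether the low counts of YTHDF2, YTHDF3, YTHDC1, IGF2BP2 and FMR1 mean low RNA.

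**Figure D1:**
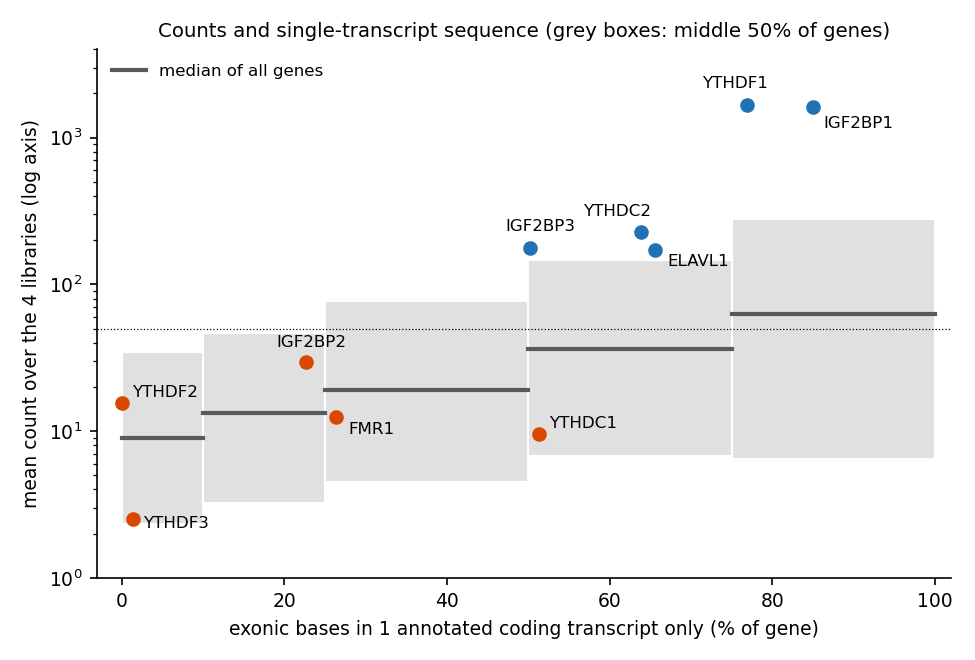
Mean count over the 4 libraries (log axis) of each reader gene against the percent of its exonic bases that lie in 1 annotated coding transcript only. Grey boxes and lines give the quartiles and median of all genes in each range, the dotted line marks 50 counts, and the 5 genes in blue lie above it, all with more than 50% of such bases.

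YTHDF1 carried the strongest m6A signal of the 5 well counted readers. Its gene (minus strand) spans chromosome 20 from 63195429 to 63216139, and 99.9% of its counts were on ENST00000370339. The longest internal exon of this transcript, with 1521 bases, exceeds that of 96.5% of genes past the filter (median 205 bases). In YTHDF2 and YTHDF3 this exon has 1584 and 1599 bases. Over 5302 genes the Spearman correlation of its length with enrichment was 0.007 in shCTL and 0.02 in shA5. YTHDF1 had 654, 2708, 517 and 2843 counts (292, 687, 394 and 903 CPM). The IP held more YTHDF1 RNA than the input in both populations. Its log2 enrichment was 1.23 in shCTL (95% interval 1.11 to 1.36), above that of 95.1% of genes, and 1.19 in shA5 (1.06 to 1.33), above that of 91.8%. As a ratio this was 2.35-fold and 2.29-fold. The enrichment changed by -0.04 (-0.22 to 0.15), an interval that includes 0. YTHDF1 RNA was 1.35-fold higher in shA5 by the inputs (log2 change 0.43, interval 0.26 to 0.60) and higher by 0.40 (0.32 to 0.47) in the IP. Input and IP thus moved by the same amount within counting error, and under 1.5-fold.

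**Figure D2:**
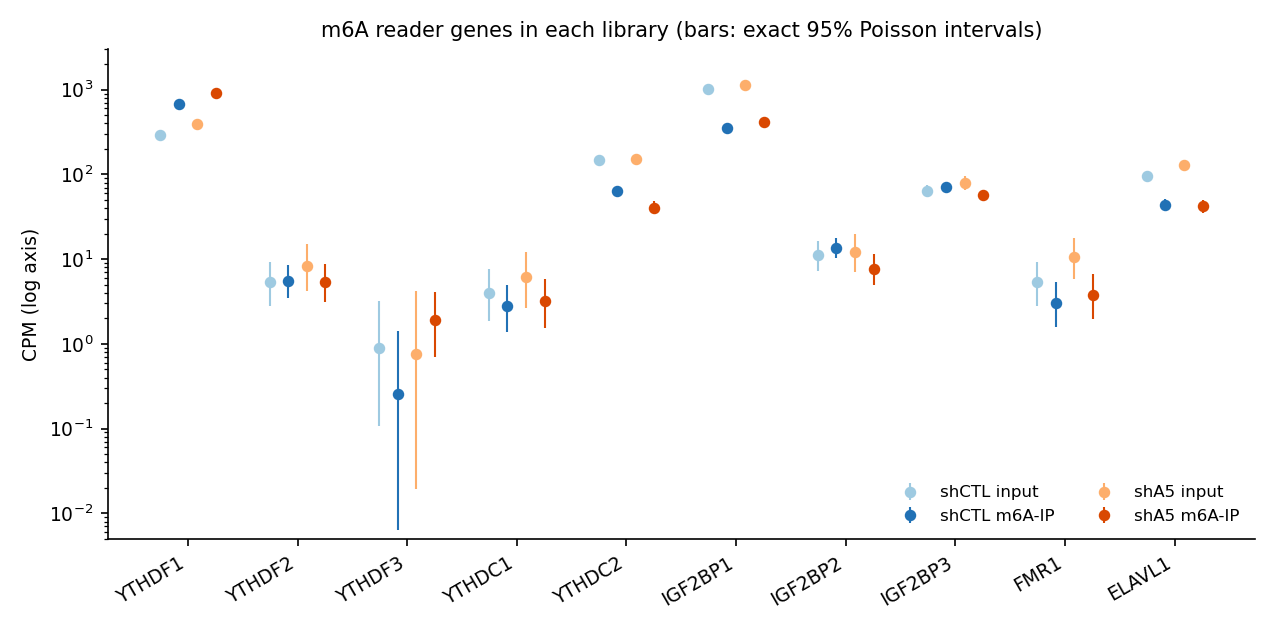
CPM of the 10 reader genes (log axis) in the input and IP of each population. Points are single libraries and bars are exact 95% Poisson intervals, so YTHDF1 stands higher in both IPs than in the inputs, while IGF2BP1, YTHDC2 and ELAVL1 stand lower.

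Of the other YTHDF paralogs, YTHDF2 (chromosome 1 from 28736621 to 28769775) had a log2 input change of 0.60 with an interval from -0.68 to 1.95, and an enrichment change of -0.64 (-2.36 to 0.98). Its transcripts share 35.6% of their stretches of 25 bases with other genes, mostly with the processed pseudogene YTHDF2P1. YTHDF3 had 2, 1, 1 and 6 counts. The inputs, and the shCTL pair, were at or under 3 counts, so no fold is given for its input RNA, its shCTL enrichment or its change of enrichment. Changes of YTHDF2 and YTHDF3 were not detectable at this depth. Per kb of transcript length YTHDF1 made up 97.6% of the YTHDF input counts in shCTL and 97.4% in shA5. This is a share of counts, not of RNA, because the low counts of YTHDF2 and YTHDF3 cannot be read as low RNA. Their single-transcript bases were 0% and 1.35% of exonic bases, against 76.9% in YTHDF1.

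YTHDC2 was depleted from the m6A-IP, more so in shA5 than in shCTL. Its gene (plus strand) spans chromosome 5 from 113513694 to 113595285, all of its counts were on ENST00000161863, and none of its stretches of 25 bases occurred in another gene. It had 330, 248, 199 and 128 counts (147, 62.9, 152 and 40.7 CPM). The inputs were alike, with a log2 change of 0.04 (-0.22 to 0.30), and the shA5 m6A-IP was the lowest of the 4. Its log2 enrichment was -1.22 (-1.47 to -0.99) in shCTL and -1.89 (-2.23 to -1.57) in shA5, where 3.36% of genes lay lower. The change of enrichment was -0.66 (-1.08 to -0.26), or 1.58-fold lower in shA5, and it came from the IP, whose log2 change was -0.62 (-0.95 to -0.32). YTHDC1, the nuclear YTH protein (chromosome 4 from 68310387 to 68350090), had 9, 11, 8 and 10 counts. Its input change of 0.55 (-0.97 to 2.15) and enrichment change of -0.38 (-2.52 to 1.70) both have intervals that include 0.

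The IGF2BP paralogs differed among themselves in level and in enrichment. IGF2BP1, on chromosome 17 from 48997385 to 49056145, had the most input counts of the 10 readers, with 2307, 1389, 1503 and 1295 counts (1031, 352, 1146 and 411 CPM). Both IPs held less of it than the inputs. Its log2 enrichment was -1.55 (-1.65 to -1.45) in shCTL and -1.48 (-1.59 to -1.37) in shA5, a depletion of 2.92-fold and 2.78-fold, and the change of 0.07 (-0.07 to 0.22) included 0. Its input RNA was higher in shA5 by 0.15 (0.06 to 0.25), which is 1.11-fold. Of its 7479 single-transcript bases 6701 are in the 3′ UTR. IGF2BP3, on chromosome 7 from 23310209 to 23470491, had 143, 280, 105 and 178 counts (63.9, 71.0, 80.1 and 56.5 CPM). The IP lay near the input in shCTL and under it in shA5. Its log2 enrichment was 0.15 (-0.14 to 0.45) in shCTL and -0.50 (-0.86 to -0.14) in shA5, a change of -0.65 (-1.12 to -0.18), or 1.57-fold lower.

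The decrease of IGF2BP3 enrichment combined an input change of 0.32 (-0.05 to 0.70) with an IP change of -0.33 (-0.61 to -0.05). It was under 1.5-fold when all libraries were thinned to the smallest total (-0.42, interval -1.03 to 0.18) and when a trend on GC content was removed (-0.58). Without that trend the enrichment of IGF2BP3 was 0.58 in shCTL and 0.013 in shA5, so its sign in shA5 depends on the correction. The coding gene MALSU1 runs antisense to IGF2BP3 and overlaps 1521 of its 4274 exonic bases. Processed pseudogenes share 774 and 206 of its stretches of 25 bases on the same strand, and in all 55.1% of its stretches occur in other genes, the largest part among the 10 readers. Whether the counting used strand is not given in the sources used here. MALSU1 itself had 104, 108, 71 and 73 counts and an enrichment change of -0.45 (-1.10 to 0.18). In the antisense overlap, reads of IGF2BP3 and MALSU1 cannot be told apart without strand. IGF2BP2, on chromosome 3 from 185643130 to 185825042, had 25, 54, 16 and 24 counts. Its IP was lower in shA5 by -0.80 on the log2 scale (-1.60 to -0.13), while the change of enrichment was -0.93 (-2.21 to 0.29). These sums mix transcripts that differed in shCTL. There the log2 enrichment was 1.03 (0.19 to 2.10) for ENST00000382199 and -2.30 (-6.37 to -0.91) for ENST00000346192. The latter had only 10 input and 2 IP counts. In shA5 both intervals include 0. Of the stretches of 25 bases of IGF2BP2 22.3% occur in other genes, most of them in processed pseudogenes.

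Levels were compared between genes per kb of the single-transcript bases of the most counted transcript, where it had at least 200 of them, and in part also per kb of whole length. Which bases the counts come from is not known, so these levels depend on the scale. In the shCTL input IGF2BP1 was the highest at 138 CPM per kb (95% Poisson interval 132 to 144), followed by YTHDF1 at 119 (110 to 128), YTHDC2 at 37.8 (33.8 to 42.1), IGF2BP3 at 29.5 (24.9 to 34.8) and ELAVL1 at 24.5 (21.3 to 28.0). Each neighbour in this order was apart from the next by its interval except YTHDC2 and IGF2BP3, and IGF2BP3 and ELAVL1, whose intervals overlap. In the shA5 input YTHDF1 stood at 160 (146 to 174) and IGF2BP1 at 153 (146 to 161), so their order was not resolved. YTHDC2 stood at 38.9 CPM per kb, IGF2BP3 at 36.2 and ELAVL1 at 33.1, with intervals that all overlap, so their order was not resolved either. Per kb of whole length ELAVL1 was above IGF2BP3 in both inputs (17.3 against 15.1 in shCTL and 21.3 against 19.3 in shA5). IGF2BP2 and FMR1 had 6.73 and 2.93 CPM per kb in the shCTL input, and no such level was computed for YTHDF2, YTHDF3 and YTHDC1. By this measure IGF2BP1 exceeded IGF2BP3 by 4.66-fold in shCTL and by 4.23-fold in shA5, against 7.80-fold and 6.76-fold per kb of whole transcript length. IGF2BP1 made up 86.7% of the input counts of the IGF2BP family per whole length in shCTL and 85.2% in shA5. The low counts of IGF2BP2 cannot be read as low RNA here either.

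Of the proposed readers outside these families, ELAVL1 (HuR) was depleted from the m6A-IP. Its gene (minus strand) spans chromosome 19 from 7958573 to 8005659, and all 3890 single-transcript bases of its most counted transcript, ENST00000407627, are in the 3′ UTR. It had 216, 173, 169 and 133 counts (96.5, 43.9, 129 and 42.2 CPM). The IPs were alike, with a log2 change of -0.05 (-0.39 to 0.28), while the input was higher in shA5 by 0.42 (0.12 to 0.71), which is 1.33-fold. Its log2 enrichment was -1.13 (-1.43 to -0.84) in shCTL and -1.60 (-1.95 to -1.27) in shA5, and the change was -0.47 (-0.92 to -0.02), under 1.5-fold. With all libraries thinned to the smallest total the interval of this change was -1.16 to 0.20. FMR1, on chromosome X from 147911919 to 147951125, had 12, 12, 14 and 12 counts. Its input change was 0.93 (-0.23 to 2.24) and its enrichment change -0.65 (-2.47 to 1.14), neither detectable at this depth. Most of its counts (58.0%) were on ENST00000621447, a short transcript of 1832 bases.

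**Figure D3:**
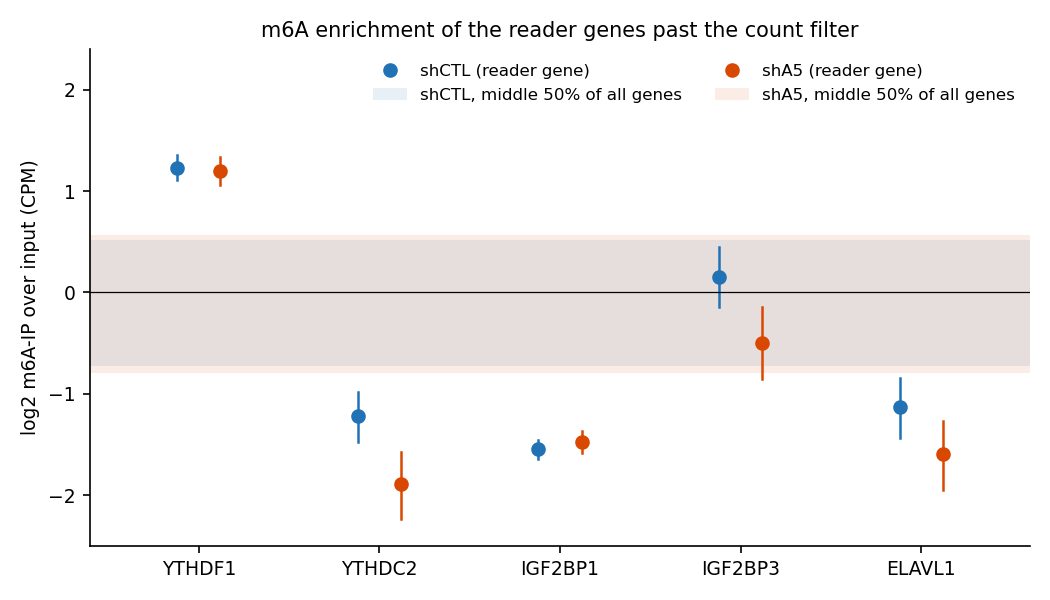
Log2 ratio of m6A-IP to input CPM for the 5 well counted reader genes, in shCTL and shA5, with exact 95% intervals of the counts. The bands hold the middle 50% of all genes (-0.73 to 0.52 in shCTL, -0.79 to 0.57 in shA5), with YTHDF1 above them, IGF2BP3 inside them and YTHDC2, IGF2BP1 and ELAVL1 below them in both populations.

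Over the 5 readers past the count filter, the median of log2 enrichment stood at -1.13 in shCTL and -1.48 in shA5, against -0.11 and -0.10 over all 5320 genes. These medians depend on which readers are admitted: with a minimum mean of 10 counts that of shCTL was -0.34, and with no filter they were -0.46 and -0.74. Enrichment of at least 1.5-fold was reached by 1 of them (YTHDF1) in each population, against 22.5% of all genes in shCTL and 24.3% in shA5. Depletion of at least 1.5-fold was found for 3 (YTHDC2, IGF2BP1 and ELAVL1) in each, against 30.3% of all genes in shCTL and 31.7% in shA5. From shCTL to shA5 the enrichment was at least 1.5-fold lower for 2 (YTHDC2 and IGF2BP3), against 5.09% of all genes, and at least 1.5-fold higher for 0, against 5.38%. The input RNA was at least 1.5-fold higher for 0, against 3.44% of all genes, and at least 1.5-fold lower for 0, against 6.43%. The interval of the input change lay above 0 for 3 (YTHDF1, IGF2BP1 and ELAVL1), against 12.9% of all genes, and below 0 for none, against 15.6%. The interval of the enrichment change lay below 0 for 3 (YTHDC2, IGF2BP3 and ELAVL1), against 8.06%, and above 0 for none, against 8.18%. Such intervals narrow as counts grow, so these shares depend on depth.

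The signs of the changes were counted apart from their intervals. Past the count filter the input change was positive for 5 of 5 readers, against 47.5% of all genes, though the intervals of YTHDC2 and IGF2BP3 include 0. The median input change of the 5 was 0.32, against -0.02 over all genes. The enrichment change was positive for 1 of 5 (IGF2BP1), against 50.5% of all genes. It was negative for the other 4, though the interval of YTHDF1 includes 0. Because each library was scaled to its own total, a gain or loss of m6A shared by all transcripts would not show in these values. The median enrichment change was -0.47 over the 5 readers, against 0.0036 over all genes. The same input counts enter both measures, so a high shA5 input raises the former and lowers the latter. The IP change was positive for 2 of 5, against 47.7% of all genes. For the 4 readers under the filter with these folds, every interval of an input or enrichment change includes 0. YTHDC2 differed from ELAVL1 in its IP, since its lower enrichment came with a lower IP and that of ELAVL1 with a higher input.

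**Figure D4:**
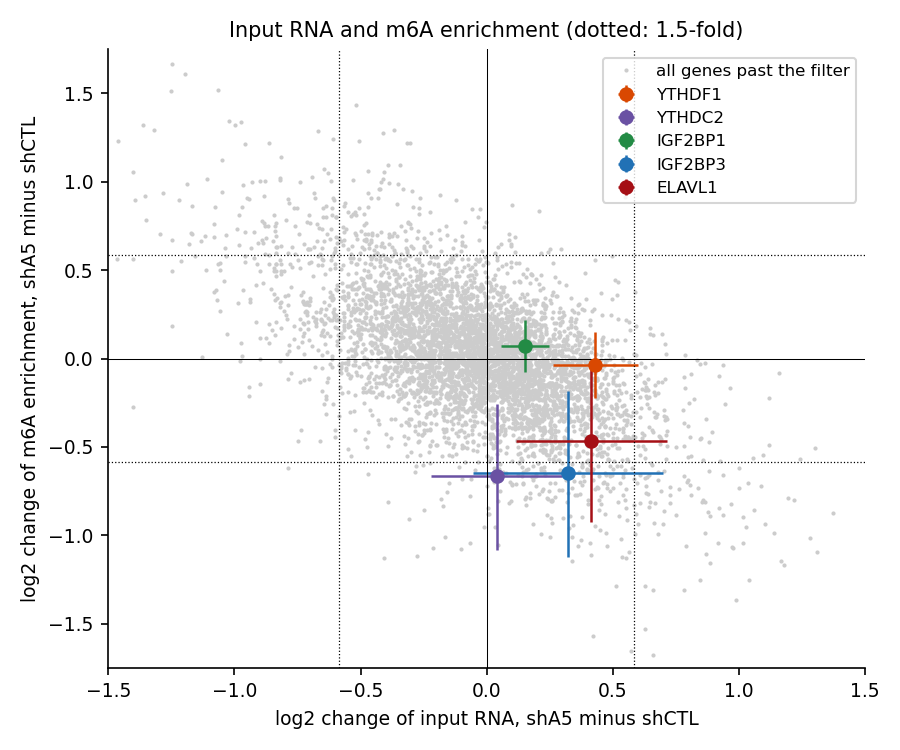
Log2 change of m6A enrichment (vertical) against log2 change of input RNA (horizontal), shA5 minus shCTL, with exact 95% intervals for the 5 reader genes past the count filter and all genes past it in grey; a few genes lie outside the axes. All 5 readers lie to the right of 0, and YTHDC2 and IGF2BP3 lie beyond the dotted line for a 1.5-fold lower enrichment.

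**Figure D5:**
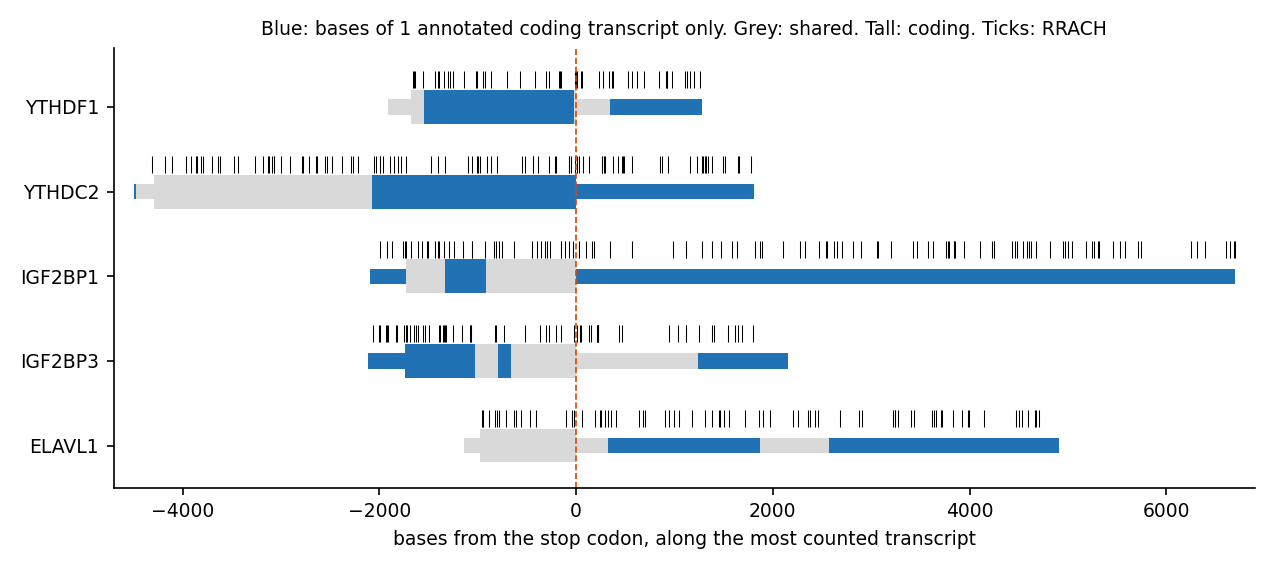
Most counted transcript of each of the 5 reader genes past the count filter, in bases from the stop codon (dashed line). Tall boxes are coding sequence, blue marks bases in 1 annotated coding transcript only, grey marks shared bases and black ticks mark RRACH. The blue bases of ELAVL1 and most of those of IGF2BP1 lie after the stop codon, while those of YTHDF1 and YTHDC2 lie on both sides of it.

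Single-transcript bases lay in different regions of these transcripts, as the map shows, and where the counted reads fell was not measured. In YTHDF1 they comprise 1521 bases of coding sequence and 938 of 3′ UTR, in YTHDC2 2077 and 1810 bases, and in IGF2BP3 849 and 918 bases with 381 more in the 5′ UTR. RRACH occurred 37 times in the 2459 single-transcript bases of the enriched YTHDF1 and 63 times in the 3902 of the depleted YTHDC2. The depleted IGF2BP1 had 87 in 7479 and ELAVL1 had 44 in 3890, so of the depleted readers 1 had a higher density than YTHDF1 and 2 a lower one. The genes most like YTHDF1 in both enrichments and in input change, among 2491 genes that averaged 200 or more counts, were TBCC, MRM3 and FEM1C, at Euclidean distances of 0.071 to 0.113 on the log2 scale. Those most like IGF2BP1 were MLEC, ATP2A2 and NUP188, at distances of 0.117 to 0.137.

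Genes that act with the readers were counted in the same way, to be read beside the shares of all genes that were enriched (22.5% in shCTL, 24.3% in shA5) or depleted (30.3% and 31.7%). For changes of at least 1.5-fold these shares were 3.44% (input higher), 6.43% (input lower), 5.38% (enrichment higher) and 5.09% (enrichment lower), so few or no calls are to be counted on in lists of this size. Of 12 other proposed readers 8 passed the count filter, and 0 of these reached 1.5-fold in either direction for input RNA or enrichment change. EIF3B, an initiation factor subunit, was enriched in both populations (0.72 in shCTL and 0.66 in shA5), and HNRNPC, a nuclear poly(U) binding protein, was depleted in both (-1.80 and -2.05). RBMX and LRPPRC were also depleted by 1.5-fold or more in both populations, and PRRC2A and SND1 in shA5, so 3 of 8 were depleted in shCTL and 5 of 8 in shA5, against 30.3% and 31.7% of all genes. Of 15 deadenylase and decay factors that work with the YTHDF proteins 5 passed the filter, with 0 past 1.5-fold for either change. Transcripts of the deadenylase gene CNOT6 were enriched in both populations and those of the helicase gene UPF1 in shCTL, while CNOT3 and CNOT11 were depleted in both. The scaffold CNOT1 of the CCR4-NOT complex had too few counts (12, 20, 9 and 10). Of 8 nuclear partners of YTHDC1, among them the splicing factors SRSF3 and SRSF10, 7 passed the filter and 0 changed by 1.5-fold. SRSF3, SRSF7 and KHDRBS1 were depleted in both populations, and SRSF10 and NXF1 passed that threshold in shA5, which makes 3 of 7 and 5 of 7 against the same shares. The YTHDC2 partners XRN1 and MEIOC were both under the filter. Of 7 partners of the IGF2BP proteins 6 passed, with 0 past 1.5-fold for either change and 3 of 6 (PABPC1, PABPC4 and DHX9) depleted in both populations, against 30.3% and 31.7%. The largest of these changes in enrichment stayed under 1.5-fold, at -0.52 (-0.92 to -0.12) in SYNCRIP and 0.56 (-0.22 to 1.37) in PABPC4. That of PABPC1 was 0.50 (0.23 to 0.77), with an input change of -0.38 (-0.57 to -0.18) and an IP change of 0.12 (-0.06 to 0.31). Among the 6 IGF2BP partners the interval of the input change lay below 0 for 2 (PABPC1 and HNRNPU), against 15.6% of all genes. It lay above 0 for 1 (YBX1), against 12.9%. The interval of the enrichment change lay above 0 for 2 (PABPC1 and HNRNPU), against 8.18% of all genes. It lay below 0 for 2 (SYNCRIP and DHX9), against 8.06%.

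Of 5 oncofetal mRNAs known to be bound by IGF2BP proteins or controlled by let-7, only LIN28B and HMGA2 passed the count filter, and both were at least 1.5-fold lower in the shA5 input, against 6.43% of all genes. Both were depleted from both IPs, against 30.3% of all genes in shCTL and 31.7% in shA5, and with 2 genes this describes no more than these genes. HMGA2, a chromatin protein gene, had 133, 75, 44 and 47 counts and an input change of -0.82 (-1.35 to -0.32). LIN28B, which encodes a blocker of let-7 maturation, had 74, 68, 28 and 34 counts and an input change of -0.62 whose interval (-1.31 to 0.01) includes 0. Of 9 writer genes 7 passed the filter. WTAP, the adaptor of the methyltransferase complex, had 100, 385, 80 and 264 counts, and its enrichment was at least 1.5-fold lower in shA5 (-0.66, interval -1.17 to -0.17), which is 1 of 7 against 5.09% of all genes. The input change of WTAP was 0.44 (0.006 to 0.89), and its IP change was -0.22 (-0.45 to 0.01), whose interval includes 0. WTAP was enriched in shCTL (1.12) and under 1.5-fold in shA5 (0.46). With RBM15B, enriched in both populations, this makes 2 of 7 enriched in shCTL and 1 of 7 in shA5, against 22.5% and 24.3% of all genes. VIRMA was depleted in both, 1 of 7 against 30.3% and 31.7%. The other 6 writers were under 1.5-fold for both changes. For METTL14, VIRMA and ZC3H13 the intervals of both changes include 0. The catalytic subunit gene METTL3 had an input change of -0.24 (-0.40 to -0.07) and an enrichment change of -0.26 (-0.46 to -0.06). RBM15B had an input change of -0.21 (-0.38 to -0.04) and an enrichment change of 0.20 (0.01 to 0.38), and METTL16 had an input change of 0.25 (0.05 to 0.44). Of the erasers, FTO was under the filter with 36, 47, 10 and 40 counts, and ALKBH5 kept its enrichment (0.74 in shCTL and 0.76 in shA5) while its RNA fell.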

How the data were processed

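The deposited tables hold integer counts for each Ensembl transcript. The authors' processing notes and methods name bcl2fastq 2.0, fastp 0.23.2, HISAT2 on hg38, SAMtools 1.9, StringTie and MACS2. Counts were summed per gene symbol and divided by library totals (CPM). Enrichment was log2 of IP over input CPM with a pseudocount of 0.5 CPM. Intervals were Clopper-Pearson for ratios and conditional odds ratios for changes, without pseudocount. Depth sets the precision: 3 counts equal 1.34 CPM (input) and 0.761 CPM (IP) in shCTL, and 2.29 and 0.953 CPM in shA5. No fold is given where both counts were at or under 3. Genes needed a mean of at least 50 counts, and calls used 1.5-fold. All 10 members were named, as were genes of the partner lists. The 3 nearest genes were named for the members with the highest and lowest shCTL enrichment. Members and lists were chosen with earlier results of these data known. The counting intervals as a criterion and levels per single-transcript base were added after seeing the data. Of 28413 listed transcripts 98.1% were in Gencode v44. Alternatives used edgeR 4.0.16 and DESeq2 1.42.0 factors (R 4.3.3), other pseudocounts, filters, transcripts and thresholds, thinning, and removal of a lowess trend on GC (span 0.3). The steps were tested on simulated data in Python 3.11.15 with numpy 2.4.6, scipy 1.17.1, statsmodels 0.14.6 and matplotlib 3.10.9. Peaks and protein sequences were not analysed here.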

Additional observations from a re-analysis of the deposited data

How the results depend on the processing

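Pairing was not possible with 1 library in each group, and no library could be left out. Of 186 numbers, medians and shares under the alternatives, 27 moved, and a reversal was not defined for them. All listed transcripts of the readers are protein coding, so the setting with protein coding transcripts only could not move their values. Of 168 values of single well counted genes under the alternatives, 164 stayed within their counting interval and 0 reversed a call. The exceptions came with the GC trend removed, where the enrichment of YTHDC2 was -0.77 in shCTL and -1.36 in shA5, that of IGF2BP3 was 0.58 and 0.013, the medians over members were -0.77 and -1.33, and 1 member had a 1.5-fold lower enrichment in shA5 (4.97% of all genes under that setting; such shares were added after seeing the data). Thinned to the smallest total, 1 member had a 1.5-fold lower enrichment (4.65% of all genes) and 1 an interval of that change below 0 (5.86%; intervals were counted over settings after seeing the data). A minimum mean of 200 counts, which leaves 3 members, gave the same numbers (1 and 1, against 1.08% and 9.80%). A 2-fold threshold gave 0 lower (0.771%). With the minimum mean at 10 counts (8 members) 2 were higher in input (9.30% of all genes), 6 were depleted in shA5 (37.8%) and 5 had lower enrichment (13.0%), and the median enrichments were -0.34 and -1.01. With no filter 2 were higher in input (12.7%), 2 were enriched (22.9%) and 7 depleted (38.4%) in shA5, 5 had lower enrichment (16.4%), and the medians were -0.46 and -0.74; these rest on members with few counts. The YTHDF1 share of the counts of its family was 98.6% in the shCTL input from the most counted transcripts, and the YTHDC2 share was 97.3% without length normalisation. All these alternatives use the same counts, so they do not show whether YTHDF2, YTHDF3 and YTHDC1 have low RNA. The IGF2BP1 share in the shCTL and shA5 inputs was 87.8% and 86.8% from the most counted transcripts, 93.2% and 92.5% without length normalisation, and 79.2% and 77.6% per single-transcript kb (added after seeing the data). The cause of the other shifts was not tested. The smallest count behind a change of enrichment was in the shA5 input for YTHDF1 (517) and IGF2BP3 (105), and in the shA5 m6A-IP for YTHDC2 (128), IGF2BP1 (1295) and ELAVL1 (133).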
